A study of Mus musculus with 23 samples.

Results

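The comparison described here sets the extra-embryonic tissue (ExE) of wild-type mouse embryos against their epiblast (E) at stage E6.25, shortly after implantation. It rests on the 8 libraries of wild-type tissue among the 23 of the series, 4 pools of each tissue that the labels number 1, 2, 4 and 5, and on the 11915 genes with enough reads to be tested in them. The other 15 libraries hold the same tissues of embryos carrying 1 (Tet1gt/wt) or 2 (Tet1gt/gt) copies of the gt allele of Tet1, and no such allele is present in the 8 wild-type libraries. Each library is 1 pool of dissected tissue from at least 6 embryos of 2 to 3 litters that were genotyped afterwards, and for 3 of the 4 numbers the E and ExE pools come from the same litters. A pool therefore averages several embryos, and the spread between pools is not the spread between embryos. In every list of 4 values below, the order is pools 1, 2, 4 and 5, and means are given ± SD with n = 4 per tissue.

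The epiblast is the pluripotent layer from which the whole embryo proper arises. The extra-embryonic ectoderm, which caps it, keeps the trophoblast stem cells of the placenta, and the cone above it holds cells that invade the uterine wall. The tissues talk to each other: the epiblast makes FGF4, which trophoblast cells receive through FGFR2, while the extra-embryonic ectoderm makes BMP4 and the proteases that mature NODAL. The tissue labelled ExE may hold all of these trophoblast cells and the visceral endoderm that wraps the embryo, and the labels do not say how it was trimmed.

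Pools 2 and 5 were the cleanest by markers of the opposite tissue. The mean log2 CPM (CPM, the counts scaled to 1000000 per library; 2 counts added) of 15 extra-embryonic ectoderm markers was 4.52, 0.93, 4.08 and 1.90 in the epiblast pools against 6.82, 7.39, 7.13 and 7.27 in the ExE pools. Conversely, 15 epiblast markers stood at 6.32, 3.98, 6.02 and 5.41 in ExE and at 6.90, 7.11, 7.18 and 7.05 in E, so pools 1 and 4 carried more of the opposite tissue's markers on both sides. The 20 visceral endoderm markers summed to between 130 and 1194 CPM in E and between 21.3 and 471 CPM in ExE, highest in pool 1 of each tissue, with up to 12 of the 20 at 0 in an ExE library. The ExE libraries of pools 2, 4 and 5 had a mean log2 CPM of 4 Y-linked genes between 3.22 and 3.76 against -0.14 in pool 1, and the epiblast libraries between 4.91 and 5.23. Markers of maternal decidua and blood summed to at most 18.9 CPM in any library. The part of these differences in the results below was not tested, and the calls were therefore recomputed in pools 2 and 5 alone, an alternative chosen after the data were seen. In bulk tissue, fewer cells of a type and less RNA per cell cannot be told apart.

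**Figure D1:**
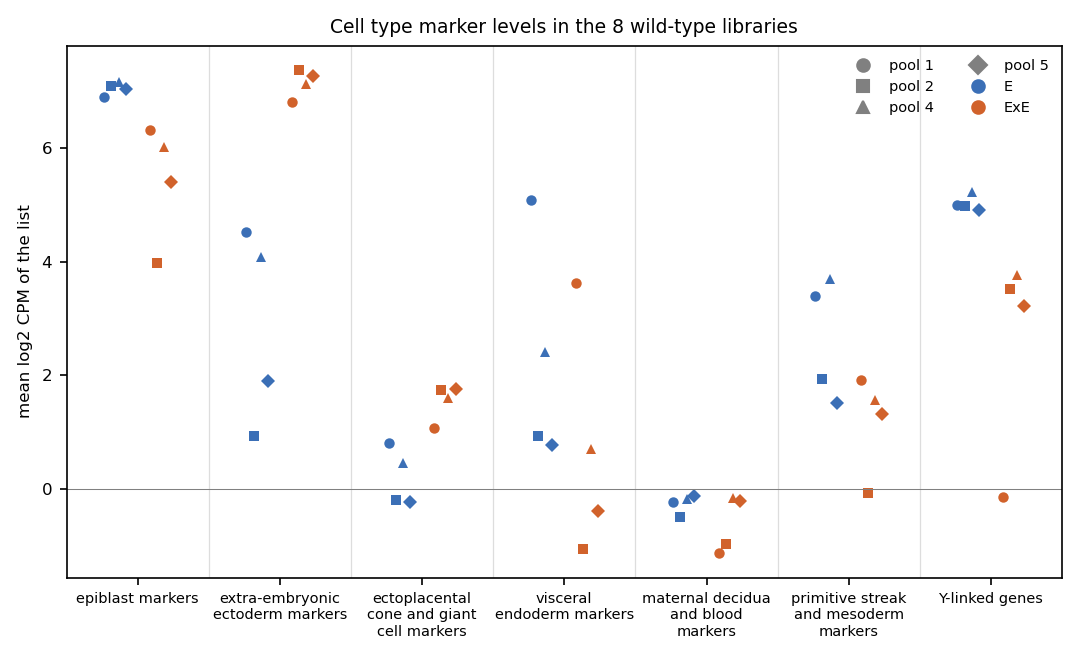
Mean log2 CPM of each marker list (y axis) in the 8 wild-type libraries, blue for epiblast and orange for ExE, with 1 symbol shape per pool. The extra-embryonic ectoderm list lies between 6.82 and 7.39 in the ExE libraries and between 0.93 and 4.52 in the epiblast libraries, and visceral endoderm markers are highest in pool 1 of both tissues.

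With edgeR's quasi-likelihood test and a Benjamini-Hochberg adjusted p below 0.05, 1526 of the 11915 genes were higher in ExE (12.8% called) and 1413 were lower (11.9% called). At least 2-fold differences were seen for 996 of the former (8.36%) and 891 of the latter (7.48%). The median log2 fold change of all tested genes, given throughout as ExE minus E with its standard error, was -0.01. Where a gene is said to rise by a value, the value is its log2 fold change. In pools 2 and 5 alone 1232 and 1252 genes were called, of which 1045 and 932 were the same as with all pools. Of the 133 called genes named below, many of them named for large changes, 78 had a fold change larger by over 1.5 times there and 0 a smaller one. The share over all called genes was not computed. These pools were picked for low levels of the opposite tissue's markers. Larger fold changes there can follow from that choice for any gene that differs between the tissues, so the counts of 78 and 0 support nothing further. Elf5 (7.27 against 4.31) and Fgf5 (-4.97 against -3.19) are on the marker lists themselves, as are Esrrb, Cdx2, Bmp4, Fgfr2, Wnt7b, Tead4, Pou5f1, Tdgf1 and Slc7a3, among others. For such genes the larger fold changes follow from that choice. The 2 groups of 4 libraries did not overlap for 1807 genes with ExE higher (15.2%) and for 1810 with E higher (15.2%). The 40 gene lists below hold 1430 genes, of which 1106 had enough reads, and each list's counts over its tested members are to be read against 12.8% and 11.9%, its median log2 fold change against -0.01. All tested list members together had 20.3% called higher and 19.6% called lower.

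**Figure D2:**
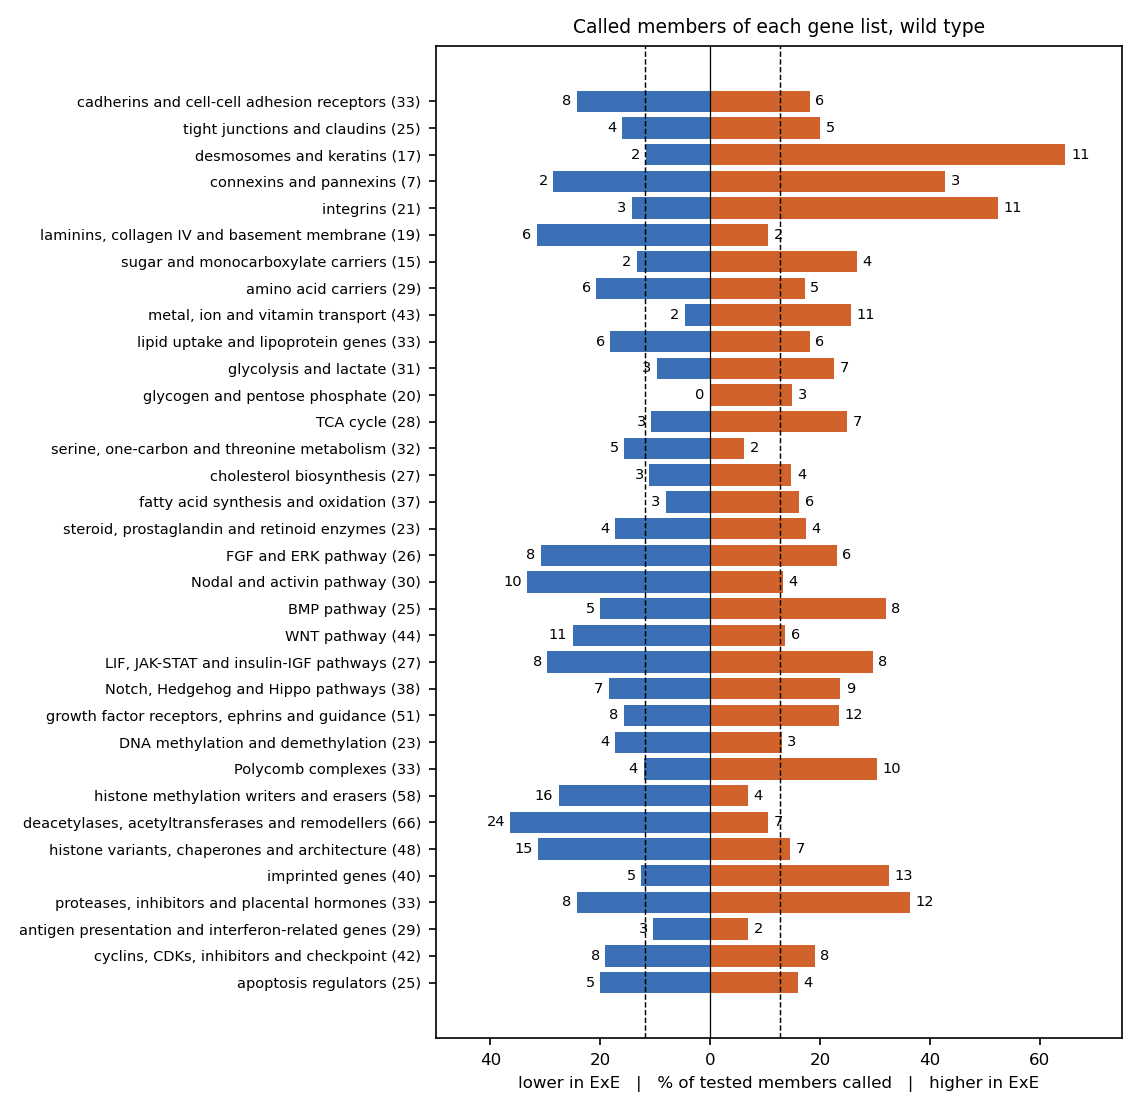
Percentage of the tested members of each list other than the 6 marker lists called higher (orange, right) or lower (blue, left) in wild-type ExE, with the number called at each bar and the number tested in brackets. Dashed lines mark 12.8% and 11.9%, the shares over all tested genes. Of the lists drawn, desmosome and keratin genes, listed with other intermediate filament genes, reach furthest to the right (11 of 17). Deacetylase, acetyltransferase and remodeller genes reach furthest to the left (24 of 66).

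All 15 extra-embryonic ectoderm markers were higher in ExE (median log2 fold change 3.98), and 9 of 15 epiblast markers were lower and 2 higher (median -2.13; 1 higher without any 1 epiblast pool or without ExE pool 4 or 5). Of 15 ectoplacental cone and giant cell markers 6 were tested and 5 were higher (median 3.51). Between 6 and 8 of the 15 were at 0 in each library. A gene with reads in 1 tissue alone can be tested, so this count can be set in part by which genes had enough reads. The same holds for every list below with untested members. Of 14 tested visceral endoderm markers 0 were higher and 1 lower (median -1.42), and the list depended on single libraries. Its median was 0.60 without epiblast pool 1, -3.94 without ExE pool 1 and -4.13 in pools 2 and 5 alone, 6 were lower without ExE pool 1, 7 of 11 tested were lower in pools 2 and 5 alone, and 0 were lower without ExE pool 4 or 5, without epiblast pool 2, 4 or 5, or with DESeq2, against 4 with the pool number as a block. Elf5, a transcription factor that maintains trophoblast stem cells, measured 18.9, 0.223, 14.3 and 2.59 CPM in E and 112, 221, 207 and 171 CPM in ExE. Esrrb, an orphan nuclear receptor with the same role in trophoblast stem cells, measured 8.81, 0, 2.91 and 1.22 CPM in E and 57.4, 86.4, 92.7 and 84.4 CPM in ExE. For both genes every ExE library lay above every epiblast library, and epiblast pools 1 and 4 were higher than pools 2 and 5. The log2 fold changes were 4.31 ± 0.75 (adjusted p = 0.00228) and 4.64 ± 0.75 (adjusted p = 0.00155), and they grew to 4.98 and 5.90 without epiblast pool 1. Cdx2, the caudal-type regulator of trophoblast identity, rose by 4.00 ± 0.82, which became 4.74 without epiblast pool 4.

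Pou5f1, which encodes the pluripotency factor OCT4, stood at 684, 845, 826 and 648 CPM in E and at 303, 19.6, 201 and 85.8 CPM in ExE. The epiblast libraries were alike and all above the ExE libraries, whose values spread 15.4-fold between pools 2 and 1. Its log2 fold change was -2.30 ± 0.58 (adjusted p = 0.0143). Not all genes placed on the epiblast list were epiblast-enriched. Utf1, a chromatin-bound factor of pluripotent cells, was at 527, 612, 617 and 545 CPM in E and 518, 581, 661 and 446 CPM in ExE, overlapping ranges with a log2 fold change of -0.06 ± 0.13 (adjusted p = 0.771). The POU factor Pou3f1 (589 ± 74.8 against 645 ± 77.7 CPM) likewise overlapped. Dppa4, a nuclear protein known from pluripotent cells, went the other way, with 28.6, 14.2, 34.4 and 23.4 CPM in E and 102, 155, 149 and 141 CPM in ExE, no overlap, and a log2 fold change of 2.44 ± 0.26 (adjusted p = 0.000178). Its neighbour and partner Dppa2 was also higher in ExE, at 18.4 ± 7.42 against 3.04 ± 1.54 CPM.

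The promoter windows of 4 genes at the ends of this comparison are shown because Elf5 and Esrrb belong to the extra-embryonic side, Pou5f1 to the epiblast side, and Smarca1 is the remodeller gene described below, 14.3-fold lower in ExE. They are the 250 bases before the RefSeq start of each gene on build GRCm38.p6, 5′ to 3′ on the gene's strand, with CG dinucleotides, the sites of DNA methylation, in capitals.
Elf5, chr2:103411848-103412097, + strand: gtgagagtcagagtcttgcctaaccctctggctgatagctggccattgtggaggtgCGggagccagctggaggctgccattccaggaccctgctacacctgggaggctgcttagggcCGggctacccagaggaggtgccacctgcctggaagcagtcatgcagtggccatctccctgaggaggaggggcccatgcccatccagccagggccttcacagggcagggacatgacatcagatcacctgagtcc
Esrrb, chr12:86360867-86361116, + strand: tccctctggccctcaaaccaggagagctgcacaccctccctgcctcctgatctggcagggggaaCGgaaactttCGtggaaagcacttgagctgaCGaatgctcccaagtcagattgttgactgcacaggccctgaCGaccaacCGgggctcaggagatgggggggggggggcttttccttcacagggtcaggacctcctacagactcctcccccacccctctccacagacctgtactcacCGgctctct
Pou5f1, chr17:35505782-35506031, + strand: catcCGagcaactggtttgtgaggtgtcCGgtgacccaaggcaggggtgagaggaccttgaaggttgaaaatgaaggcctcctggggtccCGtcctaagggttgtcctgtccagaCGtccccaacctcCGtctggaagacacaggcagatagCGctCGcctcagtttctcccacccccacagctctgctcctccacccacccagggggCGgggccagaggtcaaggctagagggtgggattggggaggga
Smarca1, chrX:47892614-47892863, - strand: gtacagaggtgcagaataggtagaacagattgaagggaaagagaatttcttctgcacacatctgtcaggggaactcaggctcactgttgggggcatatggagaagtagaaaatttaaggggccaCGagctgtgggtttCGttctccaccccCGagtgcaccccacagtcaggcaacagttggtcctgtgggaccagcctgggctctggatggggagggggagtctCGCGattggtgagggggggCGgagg
The Elf5 window held 2 CG dinucleotides, the Esrrb and Smarca1 windows 6 each and the Pou5f1 window 8. Over the 27025 promoter windows of the RefSeq table the median was 6, and 49.5% had 5 or fewer. Over the 8978 windows of tested genes the median was 16, above all 4 windows, and 10.2% had 5 or fewer. A search on both strands for GGAATG, the core recognised by TEAD factors, found it in the Elf5 window and not in the other 3, and 12.6% of all windows hold it. The octamer ATGCAAAT (in 1.61% of all windows), the TFAP2 motif GCCNNNGGC (13.6%) and the E-box CACGTG (6.05%), searched in the same way, were in none of the 4 windows. Only 75.4% of the tested genes had a window in the table, so the windows of genes higher and lower in ExE were not compared.

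Among genes chosen only for the size of their difference, and with a mean log2 CPM above 1, the largest increase was at Wdr72. Wdr72, which encodes a WD-repeat protein of vesicle traffic, had 1.201, 0, 0.832 and 0 CPM in E and 36.2, 27.6, 17.6 and 21.6 CPM in ExE. A count of 0 allows up to 3 reads, or 0.333 to 0.435 CPM in the epiblast libraries, and these limits cover counting error only. Its log2 fold change of 5.64 ± 0.78 (adjusted p = 0.000754) is thus set by few epiblast reads, and it was 6.50 without epiblast pool 1. Lgals3, which encodes the galactose-binding lectin galectin-3, measured 1.601, 0.223, 0.554 and 0 CPM in E and 7.36, 41.5, 13.4 and 9.64 CPM in ExE (log2 fold change 4.88 ± 0.88; 6.02 without epiblast pool 1 and 4.06 without ExE pool 2). Fgfbp1, a secreted carrier that releases FGF from the matrix, rose by 4.81 ± 0.73, and Grhl3, a grainyhead factor of surface epithelia, rose by 4.81 ± 0.77 (5.90 without epiblast pool 1).

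On the epiblast side, Irs4, an adaptor of the insulin and IGF receptors, had 8.14, 23.04, 28.6 and 23.1 CPM in E and 0.241, 0.999, 1.8 and 0.136 CPM in ExE. Its log2 fold change was -4.66 ± 0.69 (adjusted p = 0.00101; -5.40 without ExE pool 4). Lypd6 and Lypd6b, neighbouring genes on chromosome 2 (chr2:50066429-50193569 and chr2:49787688-49948849, GRCm38) that encode LY6-domain membrane proteins, were both among the 10 largest decreases. Lypd6 measured 12.01, 10.8, 7.21 and 22.4 CPM in E and 0.603, 1.55, 0.12 and 0.679 CPM in ExE, and Lypd6b 8.27, 14.7, 8.73 and 11.3 and 1.69, 0, 1.08 and 0 CPM. Their log2 fold changes were -4.11 ± 0.68 (adjusted p = 0.00171; -4.77 without ExE pool 2) and -3.92 ± 0.96 (adjusted p = 0.0123; -4.83 without ExE pool 1). Pde4b, a phosphodiesterase that breaks down cyclic AMP, also fell (log2 fold change -3.88 ± 0.94; -4.51 without ExE pool 1).

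Connexin genes, whose products form the gap junction channels between neighbouring cells, differed in both directions. Of 14 connexin and pannexin genes 7 were tested, with 3 higher and 2 lower in ExE. Their median was not stable between settings: it was 2.42, but -0.39 with no filter on low counts, 0.81 with all 23 libraries in 1 fit, 3.79 with the pool number as a block, 4.54 without epiblast pool 1, 4.49 in pools 2 and 5 alone, 3.90 with limma-voom and 4.87 without pool 1 of both tissues. Gja1 (connexin 43) had 459, 433, 417 and 529 CPM in E and 202, 12.2, 76.9 and 46.4 CPM in ExE, with every epiblast library above every ExE library (log2 fold change -2.44 ± 0.59, adjusted p = 0.0119; -3.35 without ExE pool 1). Gjc1 (a gamma connexin) fell as well, from 37.1 ± 9.33 to 6.65 ± 5.24 CPM. The opposite was seen at Gjb5, a beta connexin, with 25.9, 0, 12.5 and 0.304 CPM in E and 92.8, 249, 207 and 198 CPM in ExE. Its ExE libraries were all above its epiblast libraries, by 4.28 ± 0.96 (adjusted p = 0.00809; 5.46 without epiblast pool 1). Per kilobase of transcript, the mean level of Gja1 was 118 CPM in E and 21.7 in ExE, and that of Gjb5 5.62 in E and 109 in ExE.

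Desmosomes and keratins, which anchor epithelial cells to each other through intermediate filaments, were listed with other intermediate filament genes. The list had 11 of 17 tested genes higher in ExE and 2 lower (median 1.54), and 9 and 3 in pools 2 and 5 alone. The higher genes were 6 of 9 tested desmosome genes, 3 of 4 tested keratin genes and 2 of 4 other intermediate filament genes. The list held 12 desmosome and 9 keratin genes, and its counts can be set in part by which had enough reads. Perp, a desmosomal membrane protein, stood at 32.02, 5.12, 38.7 and 10.2 CPM in E and 272, 302, 295 and 339 CPM in ExE. Krt19, a type I keratin of simple epithelia, measured 19.2, 4.12, 21.3 and 2.74 CPM in E and 106, 322, 231 and 167 CPM in ExE. Neither gene's ranges overlapped, and the log2 fold changes were 3.81 ± 0.50 (adjusted p = 0.000588) and 4.12 ± 0.60 (adjusted p = 0.000933). The keratin pair Krt8 and Krt18 rose from 40.6 ± 27.2 to 255 ± 92.7 CPM and from 162 ± 61.7 to 794 ± 219 CPM. The 2 lower genes were other intermediate filament genes: Vim (vimentin, the filament of mesenchymal and early embryonic cells) had 31.6, 36.9, 35.3 and 35.2 CPM in E and 13.1, 0.777, 3.84 and 3.39 CPM in ExE, and Nes (nestin) averaged 49.5 ± 8.95 and 14.98 ± 13.6 CPM. Vim did not overlap and fell (log2 fold change -2.71 ± 0.60, adjusted p = 0.00781; -3.71 without ExE pool 1). Nes, at -1.72 ± 0.48 (adjusted p = 0.0224; -2.58 without ExE pool 1), did not pass without epiblast pool 2 (adjusted p = 0.0598), ExE pool 4 (0.0621) or ExE pool 5 (0.0589). Lmna, the gene of nuclear lamins A and C, rose from 9.02 ± 8.77 to 62.1 ± 2.91 CPM (log2 fold change 2.79 ± 0.58; 3.70 without epiblast pool 1).

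Integrins, the receptors that tie cells to the basement membrane, and their intracellular partners had 11 of 21 tested genes higher in ExE and 3 lower (median 0.69; 12 and 2 in pools 2 and 5 alone). Itga7, a laminin receptor subunit, measured 22.4, 0, 13.03 and 3.04 CPM in E and 146, 255, 153 and 181 CPM in ExE. Itgb4, the beta subunit of hemidesmosomes, had 3.202, 0.668, 1.25 and 0 CPM in E and 7.96, 58.1, 54.7 and 22.9 CPM in ExE. Both were higher in all ExE libraries, by 4.26 ± 0.80 (adjusted p = 0.00339; 5.12 without epiblast pool 1) and 4.79 ± 0.85 (adjusted p = 0.00251; 5.74 without epiblast pool 1), although Itgb4 ranged from 7.96 to 58.1 CPM between ExE pools and had an adjusted p of 0.0599 with limma-voom. Itga6, whose product is the usual partner of ITGB4, went down: 133, 175, 153 and 163 CPM in E against 66.4, 60.7, 51.01 and 81.7 CPM in ExE, with little spread in either tissue (log2 fold change -1.26 ± 0.17, adjusted p = 0.000578). Dag1 (dystroglycan), Fermt2 (kindlin-2) and Parva (alpha-parvin) rose by 1.28 ± 0.18, 1.46 ± 0.16 and 1.74 ± 0.29.

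Basement membrane genes did not move as 1 group: 2 of 19 were higher and 6 lower (median -0.35; 1 higher without epiblast pool 2, 4 or 5 or ExE pool 5), and 4 and 4 in pools 2 and 5 alone. The linker genes Nid1 and Nid2, which encode nidogens 1 and 2, changed in opposite directions. Nid1 was at 10.9, 0, 18.02 and 5.33 CPM in E and 86.2, 167, 109 and 153 CPM in ExE, and Nid2 was at 160.3, 151, 149 and 137 and 100.4, 59.3, 77.2 and 76.8 CPM. Their log2 fold changes were 3.92 ± 0.74 (adjusted p = 0.00349; 4.59 without epiblast pool 4) and -0.93 ± 0.16 (adjusted p = 0.00236), with no overlap for either. Fibronectin (Fn1), a matrix glycoprotein, fell from 97.2 ± 27.8 to 25.6 ± 22.1 CPM (log2 fold change -1.93 ± 0.46; -2.73 without ExE pool 1), and the type IV collagen gene Col4a1 from 100.1 ± 52.7 to 23.5 ± 15.2 CPM, while the laminin gene Lamc1 did not pass the test (91.3 ± 8.76 and 119 ± 22.9 CPM).

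Among tight junction genes (5 of 25 higher, 4 lower, median 0.03, with 1 or 2 lower without epiblast pool 1 or 5 or ExE pool 4), the claudins Cldn3 and Cldn4, adjacent on chromosome 5, stood out. Cldn3 had 18.01, 4.34, 15.5 and 2.44 CPM in E and 102, 178, 182 and 126 CPM in ExE, without overlap (log2 fold change 3.87 ± 0.52, adjusted p = 0.000623), and Cldn4 rose from 7.64 ± 4.79 to 64.01 ± 24.4 CPM. Cldn6 (227 ± 15.5 and 272 ± 29.04 CPM) and Cldn7 (133 ± 15.9 and 165 ± 21.2 CPM) were at similar levels in both tissues and did not pass the test. Of 33 cadherin and other cell adhesion receptor genes, 6 were higher and 8 lower (median -0.51). The lower count was 4 or 5 without epiblast pool 2 or 5 or ExE pool 5, and 12 without ExE pool 1. Cdh1 (E-cadherin) was abundant in both, 1047 ± 85.5 CPM in E and 1573 ± 304 CPM in ExE (log2 fold change 0.59 ± 0.13, adjusted p = 0.00868; adjusted p = 0.101 when all 23 libraries were fitted together). The tetraspanin Cd9 rose by 2.11 ± 0.17 (adjusted p = 7.27e-05), and Cd24a, a glycosylphosphatidylinositol-anchored surface protein, fell (log2 fold change -2.45 ± 0.49, adjusted p = 0.00451).

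**Figure D3:**
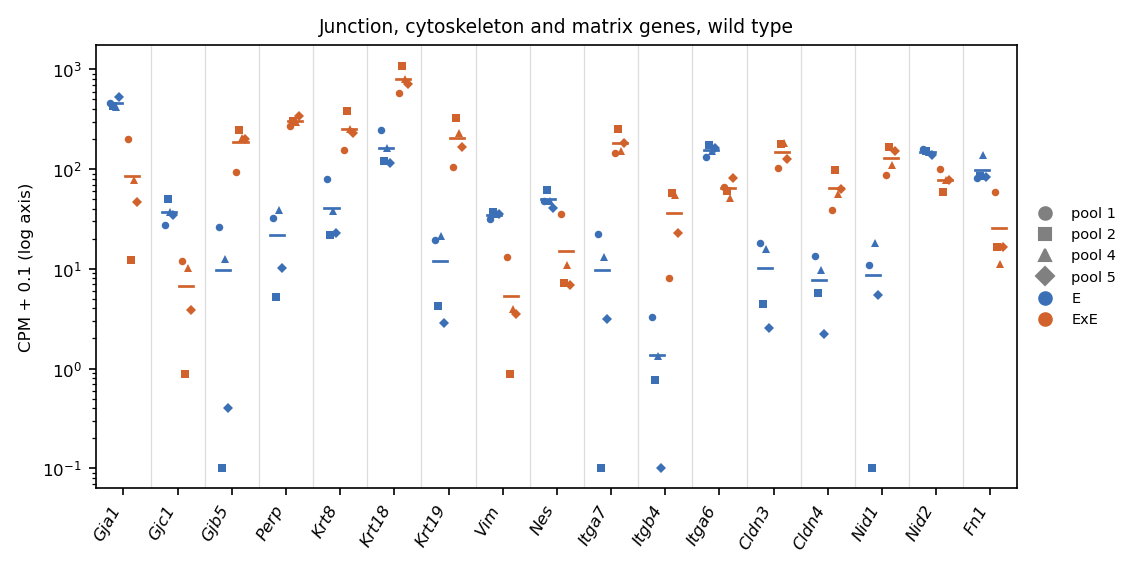
CPM of junction, cytoskeleton and matrix genes in each wild-type library, plotted with 0.1 added on a log axis, blue for epiblast and orange for ExE, 1 symbol shape per pool, with bars at the group means. Gja1, Gjc1, Vim, Itga6, Nid2 and Fn1 lie higher in the epiblast, and Gjb5, Perp, the keratins, Itga7, Itgb4, Cldn3, Cldn4 and Nid1 lie higher in ExE.

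Transporter genes were counted by substrate. Of 15 sugar and monocarboxylate carriers 4 were higher and 2 lower (median 0.35), of 29 amino acid carriers 5 were higher and 6 lower (median -0.62), and of 43 genes of metal, ion and vitamin transport 11 were higher and 2 lower (median 0.27). In pools 2 and 5 alone the amino acid carriers counted 4 higher and 10 lower, and the metal, ion and vitamin genes again 11 and 2. The 2 lower genes of the sugar and of the metal lists were 0 or 1 without epiblast pool 2, 4 or 5 or ExE pool 4, and for the sugar list also without ExE pool 1 or 5. Slc2a3 (the glucose carrier GLUT3) measured 943, 426, 513 and 434 CPM in E and 1334, 2015, 1068 and 1586 CPM in ExE. The groups did not overlap, although epiblast pool 1 was well above the other epiblast pools, and the log2 fold change was 1.37 ± 0.26 (adjusted p = 0.00371). Slc2a1 (GLUT1) rose less, from 902 ± 28.5 to 1289 ± 226 CPM.

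Slc7a3, a carrier of arginine and lysine, had 455, 544, 523 and 639 CPM in E and 174, 6.88, 81.6 and 46.03 CPM in ExE. Epiblast was higher in all libraries, with ExE pools 25.2-fold apart (log2 fold change -2.81 ± 0.64, adjusted p = 0.00901; -3.59 without ExE pool 1). Slc38a4, an imprinted carrier of neutral amino acids that the placenta uses, showed the reverse, 91.4, 39.8, 66.5 and 65.5 CPM in E and 226, 254, 164 and 312 CPM in ExE, without overlap (log2 fold change 1.86 ± 0.25, adjusted p = 0.000671). Its relatives Slc38a1 and Slc38a2 fell (log2 fold changes -0.84 ± 0.14 and -0.78 ± 0.15, the latter with an adjusted p of 0.121 when all 23 libraries were fitted together). The large neutral amino acid carrier Slc7a5 (LAT1) rose from 232 ± 25.1 to 425 ± 65.3 CPM.

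Slc46a1, the proton-coupled folate carrier, was at 16.7, 9.79, 25.5 and 9.44 CPM in E and 90.9, 120.1, 115 and 85.7 CPM in ExE, and Mt1, a metallothionein that binds zinc and copper, at 86.5, 62.7, 54.9 and 83.7 and 109, 340.5, 297 and 264 CPM. All ExE libraries exceeded all epiblast libraries for both, by 2.75 ± 0.31 (adjusted p = 0.000241) and 1.81 ± 0.30 (adjusted p = 0.00183). Mt2, beside Mt1 on chromosome 8, rose by 1.94 ± 0.30, and so did the iron exporter Slc40a1 (ferroportin), by 1.70 ± 0.23. The transferrin receptor Tfrc (174 ± 23.1 and 202 ± 45.6 CPM) and the ferritin heavy chain Fth1 (676 ± 72.5 and 722 ± 109 CPM) did not pass the test.

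Lipid uptake and lipoprotein genes had 6 of 33 higher and 6 lower (median 0.01). Fabp3, an intracellular fatty acid carrier, measured 38.03, 7.68, 20.2 and 8.07 CPM in E and 122, 242, 221 and 254 CPM in ExE, without overlap (log2 fold change 3.50 ± 0.48, adjusted p = 0.000671; 4.12 without epiblast pool 1). Apoc1, an apolipoprotein, rose by 3.00 ± 0.39. On the epiblast side were Slc27a2, a very-long-chain acyl-CoA synthetase, at 38.9 ± 12.5 against 4.01 ± 2.62 CPM, and the sterol exporter Abcg1, at 16.1 ± 2.16 against 2.72 ± 2.46 CPM (log2 fold change -2.57 ± 0.61; -3.35 without ExE pool 1).

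Of 22 tested genes of glycolytic enzymes 4 were higher in ExE and 2 lower, and of 9 genes of pyruvate entry into the mitochondrion 3 were higher and 1 lower (2 lower without ExE pool 1). Together they were 7 of 31 higher and 3 lower (median 0.07). Hk1, a hexokinase that phosphorylates glucose, stood at 23.1, 37.4, 48.2 and 32.7 CPM in E and 157, 314, 194 and 243 CPM in ExE. Pfkp, the platelet-type phosphofructokinase, measured 45.6, 32.4, 54.6 and 25.9 CPM in E and 149, 276, 191 and 199.9 CPM in ExE. For both, each ExE library was above each epiblast library, with log2 fold changes of 2.68 ± 0.26 (adjusted p = 0.000144) and 2.36 ± 0.26 (adjusted p = 0.000208). Other isozyme genes of the same steps did not pass the test: Hk2 was at 197 ± 20.1 CPM in E and 198 ± 14.2 in ExE, and Pfkl at 913 ± 114 and 943 ± 104 CPM. Per kilobase of transcript, Hk1 averaged 8.27 CPM in E and 53.03 in ExE, against 35.7 and 35.9 for Hk2. The most abundant glycolytic genes Pkm (6115 ± 445 and 5844 ± 466 CPM) and Ldha (4173 ± 381 and 3590.2 ± 619 CPM) overlapped between tissues. Eno3, the muscle-type enolase, had 31.6, 50.3, 42.3 and 53.9 CPM in E and 16.5, 5.55, 16.3 and 7.33 CPM in ExE and fell (log2 fold change -1.96 ± 0.37, adjusted p = 0.00329), and Ldhb, the lactate dehydrogenase subunit of oxidative tissues, fell from 224 ± 29.8 to 107 ± 43.4 CPM.

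Among the genes of pyruvate entry, most of which did not pass the test, the pyruvate carrier subunits Mpc1 and Mpc2 rose by 2.14 ± 0.45 and 2.00 ± 0.44. Pcx, the pyruvate carboxylase that refills the citric acid cycle, had 11.2, 9.79, 18.99 and 9.44 CPM in E and 37.9, 53.3, 75.1 and 63.5 CPM in ExE, without overlap (log2 fold change 2.22 ± 0.30, adjusted p = 0.000623). A list of citric acid cycle genes and genes connected to the cycle had 7 of 28 higher and 3 lower (median 0.17; 3 and 3 in pools 2 and 5 alone, and 4 higher without epiblast pool 5). The lower ones, Mdh1, Pck2 and the citrate lyase gene Acly (log2 fold change -0.66 ± 0.11), encode connected enzymes and not steps of the mitochondrial cycle. Of 20 genes of glycogen and pentose phosphate metabolism 3 were higher and 0 lower (median 0.11; 5 and 1 without ExE pool 1, and 1 lower without epiblast pool 1), among them the glycogen synthase gene Gys1 (from 28.8 ± 10.1 to 85.3 ± 40.7 CPM) and Ugp2, which makes its substrate (log2 fold change 1.32 ± 0.20).

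In serine, one-carbon and threonine metabolism 2 of 32 were higher and 5 lower (median 0.02). Mthfd2l, a mitochondrial folate enzyme, fell from 21.4 ± 4.97 to 5.93 ± 1.23 CPM, Mat2b, a subunit of the enzyme that makes the methyl donor S-adenosylmethionine, from 100.4 ± 13.04 to 41.3 ± 4.54 CPM, and the spermine synthase Sms from 138 ± 13.1 to 37.5 ± 15.2 CPM. Gldc, the glycine decarboxylase, rose from 529 ± 27.6 to 818 ± 92.6 CPM.

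Lipid-making genes went both ways (6 of 37 higher, 3 lower, median 0.16). Dgat2, which joins the last fatty acid to triglycerides, measured 75.9, 13.02, 34.6 and 22.7 CPM in E and 209, 264, 256 and 228 CPM in ExE. Acsl4, an acyl-CoA synthetase that prefers arachidonic acid, measured 207, 176, 161 and 257 and 53.9, 37.97, 41.4 and 45.1 CPM, and Fads2, the delta-6 desaturase that starts polyunsaturated fatty acid synthesis, 100.2, 111, 117 and 95.1 and 34.8, 20.5, 30.5 and 27.3 CPM. None of the 3 genes overlapped between tissues, and Acsl4 and Fads2 varied by no more than 1.70-fold among ExE pools. The log2 fold changes were 2.71 ± 0.42 for Dgat2 (adjusted p = 0.00131; 3.35 without epiblast pool 1), -2.17 ± 0.18 for Acsl4 (adjusted p = 7.27e-05) and -1.90 ± 0.18 for Fads2 (adjusted p = 0.000144). The cholesterol genes were mixed, with 4 of 27 higher and 3 lower (median 0.12), 1 and 2 in pools 2 and 5 alone, and 0 higher without epiblast pool 5. Without epiblast pool 1 or 2 or ExE pool 2, 4 or 5 they were 1 or 2 higher, and without epiblast pool 2 the lower count was 1. Of 23 steroid, prostaglandin and retinoid enzyme genes 4 were higher and 4 lower (median -0.22; 7 lower without ExE pool 1). Cyp26a1, which degrades retinoic acid, rose from 18.7 ± 16.9 to 159 ± 13.4 CPM.

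Fgf5 and Fgf4 were lower and the receptor gene Fgfr2 higher in ExE. Of 26 genes of the FGF and ERK pathway 6 were higher and 8 lower (median -0.06). Of its 12 ligand genes 5 were tested, with 4 lower and 0 higher (median -2.05). Without epiblast pool 2 these became 4 lower in the pathway and 2 among the ligands, and without ExE pool 5 they became 5 and 2. Fgf5, made by the primed epiblast, had 259.5, 267, 237 and 295 CPM in E and 67.6, 2.33, 30.004 and 16.02 CPM in ExE. Fgfr2, the receptor gene of the trophoblast, had 43.9, 10.1, 30.9 and 9.74 CPM in E and 225, 392, 247 and 418 CPM in ExE. Neither gene overlapped; ExE pools spread 29.0-fold for Fgf5 and epiblast pools 4.51-fold for Fgfr2. The log2 fold changes were -3.19 ± 0.65 (adjusted p = 0.00519; -4.04 without ExE pool 1) and 3.76 ± 0.47 (adjusted p = 0.000439). Fgf4, the trophoblast growth factor, fell from 41.8 ± 3.62 to 6.83 ± 5.44 CPM. Among targets of the pathway, Ets2 rose by 2.52 ± 0.25 and Etv1 fell (log2 fold change -3.18 ± 0.78; -4.28 without ExE pool 1).

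Of 12 BMP ligand genes 6 had enough reads to be tested, and 5 of these were higher in ExE (median 3.23). Genes with reads in ExE alone can be tested, so this count can be set in part by which genes had enough reads. The pathway had 8 of 25 higher and 5 lower (median 0.46; 3 lower without epiblast pool 2, 4 or 5 or ExE pool 5). Bmp1, counted with the BMP ligand genes, is by its name a ligand but encodes a protease. Bmp4, which induces germ cells and mesoderm in the epiblast, measured 14.7, 1.67, 21.6 and 8.07 CPM in E and 110.1, 148, 165 and 157 CPM in ExE. Bmp8b, which acts with it, measured 12.4, 1.78, 10.5 and 1.67 CPM in E and 96.5, 158, 141 and 178 CPM in ExE. ExE was higher in all libraries, by 3.66 ± 0.53 (adjusted p = 0.000893) and 4.44 ± 0.56 (adjusted p = 0.000466). Bmp8a, a near copy of Bmp8b whose reads could be divided with it, rose by 3.34 ± 0.49 and is uncertain for that reason. The ID genes, known targets of BMP signals, did not follow 1 direction. Id2 was at 98.7, 12.7, 60.01 and 19.03 CPM in E and 463, 779, 541 and 711 CPM in ExE, and Id3 at 269, 304, 302 and 282 and 174, 19.1, 104 and 42.9 CPM, both without overlap. Id2 rose by 3.71 ± 0.55 (adjusted p = 0.000972; 4.35 without epiblast pool 1). Id3 fell (log2 fold change -1.76 ± 0.50, adjusted p = 0.0247; -2.38 without ExE pool 1), and did not pass without ExE pool 5 (adjusted p = 0.0698) or without epiblast pool 2 (0.0507), 4 (0.0522) or 5 (0.0502).

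In the Nodal pathway 4 of 30 genes were higher and 10 lower (median -0.38). Tdgf1 (CRIPTO), the co-receptor of NODAL, had 177, 317, 265 and 198 CPM in E and 48.8, 14.7, 73.9 and 42.5 CPM in ExE, and fell (log2 fold change -2.41 ± 0.39, adjusted p = 0.001496). Pcsk6 (PACE4), the convertase that matures NODAL from outside the epiblast, had 21.5, 11.02, 30.1 and 10.96 CPM in E and 94.2, 168, 181 and 170.1 CPM in ExE, and rose by 3.06 ± 0.34 (adjusted p = 0.000242). The groups were apart for both. Lefty2, an inhibitor of NODAL, fell from 33.7 ± 12.1 to 4.402 ± 2.46 CPM, while the follistatin-like inhibitor gene Fstl3 rose from 0.687 ± 0.586 to 8.41 ± 2.16 CPM. Primitive streak markers, which include Lefty2, were 4 of 9 lower (median -1.84; 2 lower without epiblast pool 2 or ExE pool 5) and were highest in epiblast pools 1 and 4 (mean log2 CPM 3.40, 1.93, 3.69 and 1.51); the part of that difference in the pathway's counts was not tested.

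WNT pathway genes had 6 of 44 higher and 11 lower (median -1.01; 6 lower without ExE pool 5 and 15 without ExE pool 1). Wnt7b measured 65.8, 0.334, 41.99 and 2.74 CPM in E and 432, 722, 678 and 606 CPM in ExE, so that it was near 0 in epiblast pool 2 and 197-fold higher in pool 1. Its log2 fold change was 4.46 ± 0.95 (adjusted p = 0.00635; 5.34 without epiblast pool 1). Wnt6 rose by 3.97 ± 0.59 (4.75 without epiblast pool 1). Lef1, the DNA-binding partner of beta-catenin, lay on the other side, at 134, 118, 137 and 172 CPM in E and 56.7, 1.22, 13.2 and 12.6 CPM in ExE (log2 fold change -2.74 ± 0.71, adjusted p = 0.0165). It was -3.97 without ExE pool 1 and did not pass without ExE pool 5 (adjusted p = 0.0545).

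Insulin and IGF genes fell on both sides, with 4 of 14 higher and 7 lower (median -0.91; 4 lower without ExE pool 5). Igf2, the imprinted growth factor, stood at 35.1, 1.34, 23.3 and 4.11 CPM in E and 155, 304, 287 and 281 CPM in ExE, without overlap (log2 fold change 4.01 ± 0.72, adjusted p = 0.00268; 4.75 without epiblast pool 1). The receptor gene Igf1r fell from 50.4 ± 6.94 to 21.4 ± 6.98 CPM, and the adaptor genes Irs1 and Irs4 were lower too. Irs1 measured 6.54, 10.6, 3.05 and 8.68 CPM in E and 1.57, 0, 0.8401 and 0.136 CPM in ExE, few reads in either tissue (log2 fold change -3.47 ± 0.94, adjusted p = 0.0208; -4.40 without ExE pool 1). Irs1 did not pass without epiblast pool 2 (adjusted p = 0.0636), epiblast pool 5 (0.0529) or ExE pool 5 (0.0566), or with the pool number as a block (0.0601). The binding protein Igfbp2 fell (log2 fold change -2.22 ± 0.43). Stat3, the effector of LIF signals, rose from 10.7 ± 8.45 to 59.5 ± 4.42 CPM (log2 fold change 2.47 ± 0.47; 3.14 without epiblast pool 1).

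Of 18 Hippo pathway genes 7 were higher in ExE and 0 lower (median 0.25; 2 lower without ExE pool 1 and 1 without ExE pool 4). Of 7 Hedgehog genes 0 were higher and 4 lower (median -1.03), but 1 was lower without epiblast pool 2, and 2 without epiblast pool 4 or with the pool number as a block. Tead4, the transcription factor that specifies trophectoderm, had 7.34, 1.22, 4.16 and 0.152 CPM in E and 53.7, 57.2, 65.05 and 47.1 CPM in ExE. Cyr61 (CCN1), a secreted target of the YAP and TEAD factors, had 17.3, 10.3, 15.2 and 10.8 CPM in E and 78.02, 105, 96.97 and 98.7 CPM in ExE, with little spread within either tissue. Both were apart, with log2 fold changes of 4.11 ± 0.65 (adjusted p = 0.00137; 4.89 without epiblast pool 1) and 2.82 ± 0.21 (adjusted p = 7.27e-05). Tead1 rose by 2.18 ± 0.36. Among Notch genes Notch4 rose from 7.83 ± 3.01 to 45.4 ± 9.72 CPM and the ligand gene Jag1 fell from 36.7 ± 5.81 to 8.37 ± 2.46 CPM. Of 51 genes of growth factor receptors, ephrins and guidance cues 12 were higher and 8 lower (median -0.34). The lower count was 15 without ExE pool 1, 16 without pool 1 of both tissues, 4 without epiblast pool 4, and 5 without epiblast pool 1, 2 or 5 or ExE pool 5. The ephrin ligands Efna3 and Efna4 rose by 2.84 ± 0.45 and 1.70 ± 0.21, and the receptor Epha1 fell (log2 fold change -1.14 ± 0.18).

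**Figure D4:**
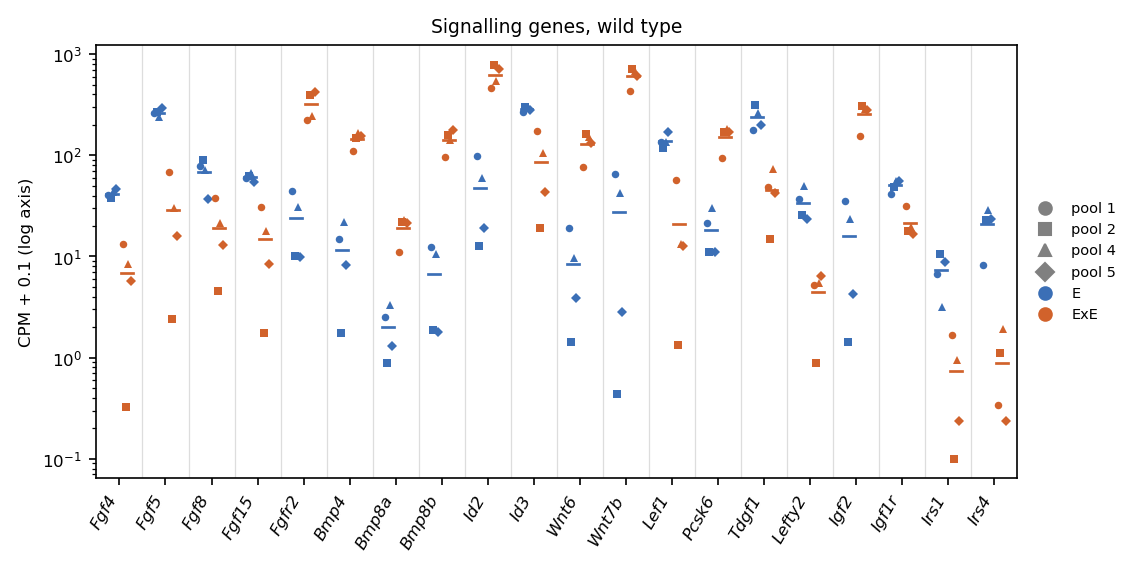
CPM of signalling genes in each wild-type library, plotted with 0.1 added on a log axis, blue for epiblast and orange for ExE, 1 symbol shape per pool, with bars at the group means. By their means, the FGF ligands, Id3, Lef1, Tdgf1, Lefty2, Igf1r, Irs1 and Irs4 lie higher in the epiblast, and Fgfr2, the BMP ligands, Id2, Wnt6, Wnt7b, Pcsk6 and Igf2 lie higher in ExE.

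DNA methylation genes were counted at 3 of 23 higher and 4 lower (median -0.01), near the shares over all genes. The de novo methyltransferase genes Dnmt3a and Dnmt3b were both lower in ExE, and the related gene Dnmt3l was higher. Dnmt3a had 660.4, 736, 743 and 892 CPM in E and 289, 44.7, 179.5 and 98.3 CPM in ExE, and Dnmt3b 6293, 7733, 7071 and 7925 CPM in E and 3379.5, 1764, 2392 and 2058 CPM in ExE. Dnmt3l, their catalytically inactive cofactor, had 20.1, 9.68, 18.02 and 12.6 CPM in E and 80.5, 108, 116 and 93.8 CPM in ExE. The first 2 were lower in every ExE library and Dnmt3l was higher in every one, with log2 fold changes of -2.31 ± 0.43 (adjusted p = 0.00322), -1.60 ± 0.17 (adjusted p = 0.000208) and 2.72 ± 0.25 (adjusted p = 9.23e-05). Per kilobase of transcript, Dnmt3b averaged 555 CPM in ExE, still above Dnmt3l at 54.7 CPM. The maintenance enzyme Dnmt1 (365 ± 26.4 and 349 ± 37.9 CPM) and its recruiter Uhrf1 (358 ± 17.3 and 398 ± 29.4 CPM) did not pass the test.

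Tet1, the dioxygenase targeted in the other genotypes, was at 129, 179, 195 and 203 CPM in E and 110.5, 98.5, 99.9 and 77.4 CPM in ExE. Epiblast pool 1 was the lowest of its tissue and still above all ExE pools (log2 fold change -0.87 ± 0.17, adjusted p = 0.004095). Its adjusted p was 0.0834 after a correction for GC content and transcript length, properties with which the tissues' libraries varied. Tet1 did not pass in 3 of the alternative settings, this correction among them, and its highest adjusted p over them was 0.114. Tet2 (3.31 ± 3.62 and 10.1 ± 4.73 CPM) and Tet3 (35.4 ± 11.9 and 25.04 ± 7.27 CPM) did not pass the test.

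Of 66 deacetylase, acetyltransferase and remodeller genes 24 were lower in ExE and 7 higher (median -0.32; 17 and 5 in pools 2 and 5 alone, and 14 lower without epiblast pool 2). Of 58 genes of histone methylation 16 were lower and 4 higher (median -0.20; 14 and 2 in pools 2 and 5 alone), with 9 lower without epiblast pool 2 or ExE pool 2, and 1 or 2 higher without any 1 epiblast pool or without ExE pool 2 or 5. Among 19 SWI/SNF genes, subunits of a complex that slides and ejects nucleosomes, 13 were lower and 0 higher (median -0.58), with 9 lower in pools 2 and 5 alone and 9 to 12 without any 1 library. The core subunit genes Smarcc1 and Smarcd1 fell (log2 fold changes -0.82 ± 0.15 and -0.90 ± 0.12), as did Arid1a (-0.79 ± 0.13). Against the mean of all libraries, log2 CPM changed per log2 unit of transcript length by 0.06, 0.04, 0.07 and 0.06 in E. In ExE it changed by 0.02, -0.07, -0.15 and -0.02. Genes called lower had a median transcript length of 3889 bases, against 3158.5 for those called higher. With GC and length correction 1258 of the 1413 lower genes kept their call. The part of transcript length in the list counts of this paragraph was not tested. The ATPase gene Smarca2 (BRM) had 12.4, 10.2, 12.8 and 12.3 CPM in E and 1.09, 0, 1.56 and 1.36 CPM in ExE, without overlap (log2 fold change -3.57 ± 0.74, adjusted p = 0.00545), and an adjusted p of 0.05502 in pools 2 and 5 alone. Smarca1, the X-linked gene of SNF2L, the ATPase of another remodeller family, measured 49.9, 29.5, 37.98 and 55.4 CPM in E and 3.14, 2.11, 3 and 3.802 CPM in ExE. The ExE pools differed by no more than 1.80-fold, unlike those of Pou5f1 or Fgf5, and the log2 fold change was -3.84 ± 0.31 (adjusted p = 7.27e-05). Kat6b, an acetyltransferase, rose from 14.01 ± 1.61 to 59.9 ± 15.03 CPM, and the H3K9 methyltransferase Suv39h1 fell from 97.02 ± 12.6 to 38.7 ± 12.8 CPM.

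Polycomb genes, which write and read repressive histone marks, were 10 of 33 higher and 4 lower (median -0.05; 7 and 3 in pools 2 and 5 alone). These calls depended on single libraries: 4 were higher without ExE pool 2 or 5 and 5 without epiblast pool 2 or 4, while 1 was lower without epiblast pool 2 or ExE pool 5 and 2 without epiblast pool 1 or 5 or ExE pool 2. Phc1, a subunit of the PRC1 complex, had 309, 330.1, 323 and 349.9 CPM in E and 116, 28.6, 78.4 and 48.1 CPM in ExE, and Scmh1, a related SAM-domain protein of PRC1, had 19.6, 24.6, 23.6 and 14.6 and 67.04, 125, 109 and 103 CPM. The groups were apart for both, and the log2 fold changes were -2.27 ± 0.34 (adjusted p = 0.0009904) and 2.29 ± 0.23 (adjusted p = 0.000166). Sfmbt2, an imprinted Polycomb gene needed in trophoblast, rose from 23.2 ± 25.8 to 364 ± 133 CPM (4.96 on the log2 scale without epiblast pool 1, against 3.97). Among 48 genes of histone variants, chaperones and architecture 7 were higher and 15 lower (median -0.21; 8 lower without epiblast pool 2 and 9 without ExE pool 2). The macroH2A genes went apart: H2afy was at 54.97, 21.6, 36.5 and 28.2 CPM in E and 87.5, 177, 150.1 and 164 CPM in ExE, and H2afy2 at 31.6, 33.2, 28.1 and 28.3 and 18.2, 17.1, 12.8 and 4.75 CPM. H2afy rose by 2.04 ± 0.30 (adjusted p = 0.000939). H2afy2, at -1.19 ± 0.36 (adjusted p = 0.03199), did not pass without epiblast pool 1 (adjusted p = 0.0641), 2 (0.0765), 4 (0.0627) or 5 (0.0597) or ExE pool 4 (0.0685), nor in pools 2 and 5 alone (0.122).

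Imprinted genes, expressed from 1 parental copy and many of them active in placenta, counted 13 of 40 higher and 5 lower (median 0.17; 15 and 8 in pools 2 and 5 alone, and 8 lower without ExE pool 1). H19, which neighbours Igf2 on chromosome 7 and is expressed from the maternal copy, rose with it, from 117 ± 129 to 1362 ± 400.0 CPM (log2 fold change 3.54 ± 0.75; 4.52 without epiblast pool 1). Cdkn1c, a cell cycle inhibitor, rose by 1.89 ± 0.28 and Gab1, a signalling adaptor, by 3.28 ± 0.42. Peg10, a retrotransposon-derived gene needed for the placenta, rose by 3.23 ± 0.65 (4.15 without epiblast pool 1). Nnat (neuronatin) and Magel2 were the other way, falling from 46.9 ± 11.3 to 9.397 ± 5.87 CPM and from 18.7 ± 11.6 to 1.55 ± 1.24 CPM (log2 fold change -3.57 ± 0.63; -4.28 without ExE pool 4).

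**Figure D5:**
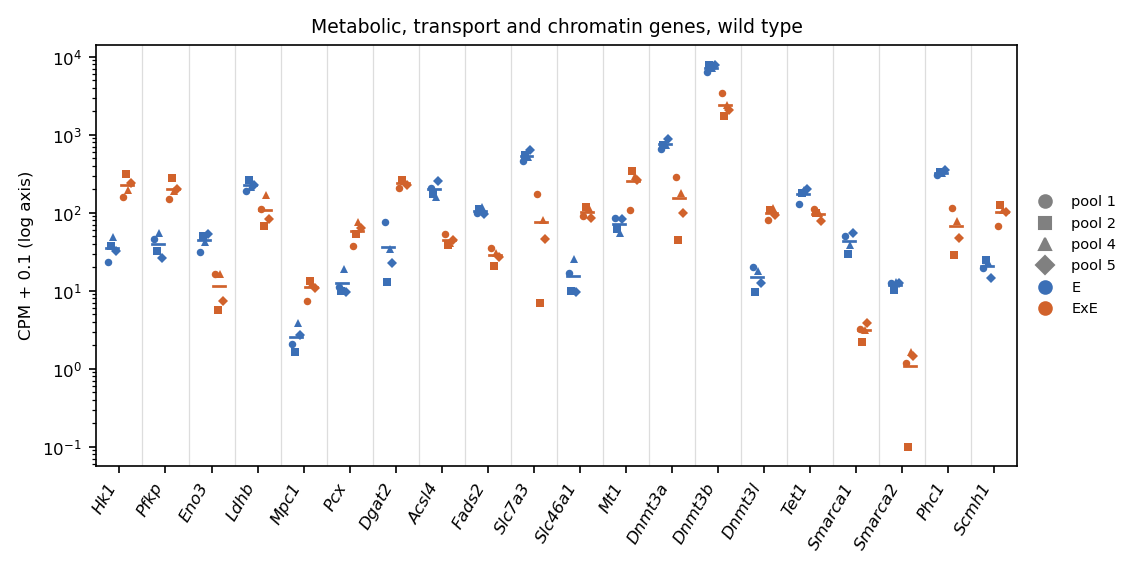
CPM of metabolic, transport and chromatin genes in each wild-type library, plotted with 0.1 added on a log axis, blue for epiblast and orange for ExE, 1 symbol shape per pool, with bars at the group means. Hk1, Pfkp, Mpc1, Pcx, Dgat2, Slc46a1, Mt1, Dnmt3l and Scmh1 lie higher in ExE, and Smarca1 lies in ExE at 3.14, 2.11, 3 and 3.802 CPM.

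Proteases and their inhibitors were 12 of 33 higher and 8 lower (median 0.34; 5 lower without epiblast pool 5). The same list held 15 placental hormone genes, of which 0 had enough reads to be tested. Htra1, a secreted serine protease, measured 29.9, 1.34, 22.2 and 5.63 CPM in E and 218, 313, 266 and 288 CPM in ExE, without overlap (log2 fold change 4.21 ± 0.65, adjusted p = 0.00126; 4.81 without epiblast pool 1). Plaur, the receptor of urokinase at the cell surface, rose by 3.78 ± 0.50 and Adam15, a membrane-bound metalloprotease, by 2.92 ± 0.46. The gelatinase Mmp2 fell from 36.8 ± 12.6 to 6.51 ± 5.81 CPM (-3.31 on the log2 scale without ExE pool 4, against -2.50). Of 29 genes of antigen presentation and interferon response 2 were higher and 3 lower (median 0.19; 5 lower without ExE pool 4).

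The D-type cyclins, which carry growth signals into the cell cycle, were not alike. Ccnd1 had 63.2, 88.1, 80.4 and 79.6 CPM in E and 44.01, 6.33, 17.6 and 11.7 CPM in ExE, and Ccnd3 had 142, 127, 167 and 92.1 CPM in E and 299, 449, 416 and 329.7 CPM in ExE. Neither gene overlapped between tissues. Ccnd1 fell (log2 fold change -1.97 ± 0.46, adjusted p = 0.0104; -2.71 without ExE pool 1) and Ccnd3 rose by 1.499 ± 0.19 (adjusted p = 0.000501). Per kilobase of transcript, the mean of Ccnd1 was 20.8 CPM in E and 5.32 in ExE, and that of Ccnd3 34.2 and 96.8. Cyclins, kinases, inhibitors and checkpoint genes as a list had 8 of 42 higher and 8 lower (median -0.19), and 4 and 3 in pools 2 and 5 alone. Without epiblast pool 1 or 2 or ExE pool 4 the higher count was 5, and without any 1 epiblast pool or ExE pool 2 or 5 the lower count was 3 to 5. Apoptosis regulators had 4 of 25 higher and 5 lower (median -0.46; 2 higher without epiblast pool 1 or 2 or ExE pool 2 or 4, and 1 higher in pools 2 and 5 alone).

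The same tissue comparison within the other genotypes used libraries separate from the 8 above. In Tet1gt/wt, with 4 pools of each tissue, 1487 of 11897 genes were higher in ExE (12.5% called) and 1706 were lower (14.3%). In Tet1gt/gt, with 4 epiblast and 3 ExE pools, 499 of 12314 were higher (4.05%) and 510 lower (4.14%). Epiblast pool 4 of Tet1gt/wt and pool 3 of both tissues of Tet1gt/gt stood apart in how their counts varied with transcript length and GC content, and without them 2380 genes were higher and 2473 lower in Tet1gt/wt ExE, and 1284 were higher and 1242 lower in Tet1gt/gt ExE. Of the genes higher in wild-type ExE that could be tested, 99.0% had the same direction in Tet1gt/wt (67.4% called) and 98.7% in Tet1gt/gt (30.0% called). For the genes lower in wild type these shares were 98.8% (69.1% called) and 98.2% (25.3% called), and 0 genes were called in the opposite direction. A test of the difference in tissue effect between genotypes called 0 of 13595 genes for Tet1gt/wt (0%) and 0 for Tet1gt/gt (0%) with edgeR's quasi-likelihood test. In that test 716 and 416 of the 13595 genes had an unadjusted p below 0.05. A share of about 0.05 of genes passes this threshold without any difference. DESeq2 called 28 and 3. At single genes, the log2 fold change of Smarca1 was -3.84 in wild type, -5.20 in Tet1gt/wt and -4.08 in Tet1gt/gt, that of Gjb5 was 4.28, 3.47 and 4.41, that of Hk1 was 2.68, 2.60 and 2.10, and that of Dnmt3l was 2.72, 2.66 and 3.26.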

How the data were processed

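Pooled mouse epiblast and extra-embryonic tissue was sequenced as polyA RNA. Per the labels' protocols, libraries were made from 1 to 10 ng of RNA (RIN above 8.0) by SMARTer amplification and read as 75-base single-end reads on a NextSeq 500, and reads under 35 bases were removed. The submitters' processing notes name FastX 0.0.13, cutadapt 1.7.1, ShortRead 1.16.3, TopHat2 2.0.12 and build mm10. The program, annotation and strand setting behind the counts were not stated, so overlapping and antisense genes cannot be told apart. The authors deposited 1 table of raw read counts per gene symbol, in which 27 symbols read as dates. No molecular identifiers are mentioned, so copies made in amplification count as reads.

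The 8 wild-type libraries held 6899786 to 9021097 counts, with 13196 to 14337 genes detected. Replicates differed by more than sampling noise (chi-square per degree of freedom 12.3 to 37.1 over the 12 pairs), so none was a duplicate. The counts were fitted with edgeR 4.0.16 (R 4.3.3): filterByExpr with a minimum count of 10, TMM normalization, the quasi-likelihood test of ExE against E, and Benjamini-Hochberg adjustment over all 11915 genes. CPM are counts scaled to 1000000 per library. Simulated counts were drawn from these libraries with 67 of 11915 genes changed 1.5-fold, 67 changed 2-fold and 66 changed 4-fold. The fit called 1.49%, 34.3% and 71.2% of these, in that order, and 0 of 11715 unchanged genes. In the data 2939 genes were called, far more than were changed there, so these shares need not hold for the data. Of 23723 symbols 98.5% matched GENCODE M21, which gave lengths (longest transcript), GC content and positions on GRCm38.

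Labels say that 3 of the 4 pool numbers share litters, without saying which, and same-numbered libraries' deviations from their group means correlated at -0.02, -0.05, 0.10 and 0.09. The pool number was a block only in an alternative. Whether pools are independent beyond their litters is not stated, so p-values measure the spread between pools. Alternatives were DESeq2, limma-voom, other scalings and filters, a 1.5-fold threshold, GC and length correction, all 23 libraries in 1 fit, and leaving out each library.

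The members and gene lists were chosen with earlier results of these data known. Genes named in the text were those with the largest changes among called genes whose 2 groups did not overlap. Within each list they were the called genes of largest change in each direction and defining members. Arid1a, Cldn7, Efna4, Hk2, Krt18, Pfkl, Slc38a2, Smarcc1, Smarcd1 and Tfrc were named outside that rule, after their values were seen. Genes on chromosome 18 and a few others were tested and counted but are not reported here by name.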

Additional observations from a re-analysis of the deposited data

Results flagged for a closer look

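Over 64 list genes and the marker lists, 142 groups of 4 libraries were examined, and in 5 of them 1 library lay far from the other 3 by Dixon's criterion, which chance meets in about 1 group in 20. In the epiblast, pool 1 had the highest Slc2a3, at 943 CPM, and pool 2 had the lowest Smarca2, at 10.2 CPM. In ExE, pool 1 had the lowest Pcsk6, at 94.2 CPM, the lowest Igf2, at 155 CPM, and the lowest mean log2 CPM of Y-linked genes, at -0.14.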

How the results depend on the processing

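The 1526 higher and 1413 lower genes of wild-type ExE became 763 and 540 (531 of them at least 2-fold lower) when a fold of 1.5 was required, 1784 and 1768 with DESeq2, 1658 and 1800 with limma-voom, 1420 and 1519 with upper-quartile scaling, and 1190 to 1610 and 955 to 1721 without 1 library. With the pool number as a replicate block, 1425 and 1369 genes were called, of which 1331 and 1193 were shared, and with GC and length correction added 1505 and 1431. Among the 133 called genes named in the report the block ended that of Irs1 (adjusted p = 0.0601) and no other, and leaving out 1 library moved 41 fold changes by over 1.5 times and ended 5 calls. Over all 21 alternatives, 20 of the 133 lost their call under at least 1. These were Acly, Arid1a, Cdh1, Gldc, H2afy2, Id3, Irs1, Itgb4, Ldhb, Lef1, Mdh1, Nes, Nid2, Slc2a1, Slc38a1, Slc38a2, Slc7a5, Smarca2, Smarcc1 and Tet1. In 0 of these alternatives was a gene called in the opposite direction, although the ferritin gene Ftl1 turned from 0.07 to -0.27 with GC and length correction, with and without the block. The median log2 fold change of the connexins turned to -0.39 with no filter, and that of visceral endoderm markers to 0.60 without epiblast pool 1 (-3.94 without ExE pool 1 and -4.13 in pools 2 and 5 alone). Without the libraries with steep length slopes, 2380 genes were higher and 2473 lower in Tet1gt/wt ExE, and 1284 higher and 1242 lower in Tet1gt/gt ExE. DESeq2 called 28 and 3 genes for the difference between genotypes where edgeR called 0. The cause of these changes was not tested. Depth limits genes near 0 in 1 tissue, such as Wdr72 and Irs1, whose folds rest on few reads.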

Other observations

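X-linked genes were called more often than autosomal genes. Of 455 tested X-linked genes 19.1% were higher and 20% lower in wild-type ExE, against 12.6% and 11.5% of 11372 autosomal genes. Smarca1, Irs4, Acsl4, Slc7a3 and Sms, all lower in ExE, are X-linked. The shares were 17.3% and 19.6% against 9.88% and 9.93% in pools 2 and 5 alone, 19.5% and 21.3% against 12.3% and 14.1% in Tet1gt/wt, and 11.5% and 9.22% against 3.77% and 3.95% in Tet1gt/gt. Xist, the RNA that silences an X chromosome, was not called, at 31.4 ± 15.5 CPM in E and 57.4 ± 31.1 CPM in ExE. Y-linked genes were lower in every ExE library than in every epiblast library (mean log2 CPM -0.14, 3.53, 3.76 and 3.22 against 5.001, 4.98, 5.23 and 4.91), and without ExE pool 1 the X-linked shares were 19.7% and 24.6% against 13.1% and 13.8%. The part of the Y-linked levels in the X-linked shares was not tested.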
